A study of Mus musculus with 6 samples.

Results

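E-cadherin and the 3 classical catenins were followed in thymic iNKT1 cells, the T-bet-expressing, interferon-producing subset of invariant natural killer T cells. The genes were Cdh1 (E-cadherin), Ctnnb1 (β-catenin), Ctnnd1 (p120-catenin) and Ctnna1 (α-catenin), found by symbol in a table of 17985 genes, which held all 4. Transcripts were measured by RNA-seq in untreated C57BL/6 mice, with 3 libraries in each of 2 groups. Control libraries (Ctrl) came from mice of genotype Tbx21CreTg;Rosa26-LSL-YFP+/+, in which the Tbx21 gene (T-bet) drives the Cre recombinase and the Rosa26 locus carries a yellow fluorescent protein reporter that Cre switches on. Conditional knockout libraries (cKO) came from Tbx21CreTg;Rosa26-LSL-YFP+/+;Tgfbr2F/F mice, which share the Cre and the reporter and in addition have loxP-flanked alleles of Tgfbr2, a receptor chain for TGF-β. Cre therefore acts in cells that have turned on Tbx21, and the comparison asks what depends on the TGF-β receptor after that step. The labels gave neither the ages of the mice nor whether each library came from a separate animal, so p-values measure the spread between these libraries, which may be technical.

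E-cadherin is a calcium-dependent adhesion receptor whose outer part binds E-cadherin on the neighbouring cell. Inside the cell p120-catenin binds next to the membrane and holds the cadherin at the surface, while β-catenin binds the end of the cytoplasmic tail and recruits α-catenin, which links the complex to actin. β-catenin that is not bound to cadherin is destroyed by the APC, AXIN and GSK3 complex or enters the nucleus, where it works with the DNA-binding proteins TCF1 and LEF1. In lymphoid tissue E-cadherin is best known from epithelium, as the ligand of the integrin CD103 (αE, encoded by Itgae, paired with β7) and of the inhibitory receptor KLRG1.

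Values are in CPM, the reads of a gene scaled to a library total of 1000000. The shallowest library held 28832779 reads and the deepest 68092478, which puts the value of a single read at 0.0347 CPM in the former and 0.0147 CPM in the latter. The replicate 3 libraries of both groups stood apart: 4406 genes (Ctrl) and 4590 genes (cKO) were at 0 there, against at most 5 in any other library, although these 2 libraries were the deepest. Results are therefore also given for replicates 1 and 2 alone where that changes them. Tgfbr2 read 461, 461 and 425 CPM in the Ctrl libraries, in replicate order, against 290, 258 and 274 CPM in the cKO libraries, so the groups did not overlap (limma adjusted p 0.0207, and from 0.0299 to 0.155 without 1 library, with cKO replicate 3 the only one whose removal kept the call). The Tgfbr2 call also ended with TMM scaling (limma adjusted p 0.0947) and in edgeR (0.0620) and returned in both with the replicate block (0.00266 and 0.00177). In the authors' deposited table its adjusted p-value is 0.373. Its reads were counted over the whole gene, and the deleted exons were not measured apart. The summed level of 12 iNKT1 and T cell identity genes lay between 9813 and 11780 CPM in Ctrl and between 10224 and 13881 CPM in cKO. Of the 12, Xcl1, a chemokine gene, was called lower, at 168, 164 and 212 CPM against 98.5, 85.7 and 90.2 CPM (limma adjusted p 0.0281).

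Cdh1 was almost lost from the cKO libraries. In replicate order its level was 258, 261 and 193 CPM in the Ctrl libraries, and 2.91, 3.62 and 0.822 CPM in the cKO replicates of the same numbers. These values rest on 8694, 8017 and 10211 reads in Ctrl and on 84, 152 and 56 reads in cKO. Every cKO library lay far below every Ctrl library, and within each group replicate 3 was the lowest. The mean fell from 237 ± 38.5 to 2.45 ± 1.45 CPM (SD, n = 3 each), so that 1.03% of the control level remained, a 96.8-fold difference. By replicate number, 1.13%, 1.39% and 0.427% of the control level was left. On the log2(CPM + 1) scale, which understates the fall of a gene that ends near 0, the difference was -6.20 with a standard error of 0.350 (limma adjusted p 0.00215). No other of the 15691 genes tested, those with a mean of at least 1 CPM, fell or rose by as much on this scale. That place belongs to the scale, since genes that end nearer 0 are held back more by the added 1 CPM. Apol9b went from a mean of 39.8 CPM in Ctrl to 0.0889 CPM in cKO. This is a larger fold in CPM than that of Cdh1, though its log2(CPM + 1) difference was -5.23. The Cdh1 call was made in replicates 1 and 2 alone as well, at -5.94 (limma adjusted p 8.50e-08). In the authors' deposited table Cdh1 has a log2 fold change of -6.58 and the second smallest p-value. In bulk RNA fewer cells with the transcript and less transcript per cell cannot be told apart, so the remaining reads cannot be assigned to all cells or to a few.

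The gene lies on chromosome 8 of the mm10 build, from 106603351 to 106670246 on the plus strand (ENSMUSG00000000303), and no exon of another annotated gene overlaps its exons. The nearest genes of the table on either side were the noncoding RP23-235K2.1, 8531 bases before it, and Tango6, 12822 bases after it. Tango6 was at 29.3, 33.2 and 24.7 CPM in Ctrl and at 26.5, 23.3 and 17.5 CPM in cKO, which overlap. RP23-235K2.1 had means of 1.33 ± 1.20 and 1.14 ± 1.24 CPM. Neither neighbour passed the test (limma adjusted p 0.99998 for both).

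E-cadherin is an epithelial gene, so markers of thymic epithelium were read beside it. Of 10 such markers only Epcam and Krt18 were in the table, and Krt5, Krt8, Krt14, Foxn1, Psmb11, Aire, Cldn3 and Cldn4 were not listed. The sum of Epcam and Krt18 lay between 5.05 and 11.3 CPM in Ctrl and between 3.82 and 11.9 CPM in cKO, ranges that overlap. Summed dendritic cell markers (5 of 7 in the table) likewise overlapped, at 8.04 to 30.9 CPM in Ctrl and 7.31 to 31.9 CPM in cKO. Sums for 2 other lists did not overlap and were higher in cKO. Double-positive thymocyte markers (6 of 8 in the table) summed to 130.5 to 138 CPM in Ctrl and 169 to 212 CPM in cKO. A single gene of them reached 194 CPM in a cKO library, most of the sum there, and none of the 6 was called. Stromal and endothelial markers (4 of 6) summed to 26.5 to 32.1 CPM in Ctrl and 52.9 to 66.5 CPM in cKO. Here too a single gene, at 63.5 CPM in a cKO library, made up most of the sum. Of the 4, Pecam1, which lymphocytes also express, was called higher (limma adjusted p 0.0423). Rag2, Ptcra, Pdgfrb and Cdh5 of these lists were not in the table. The part of these differences in the fall of Cdh1 was not tested.

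**Figure D1:**
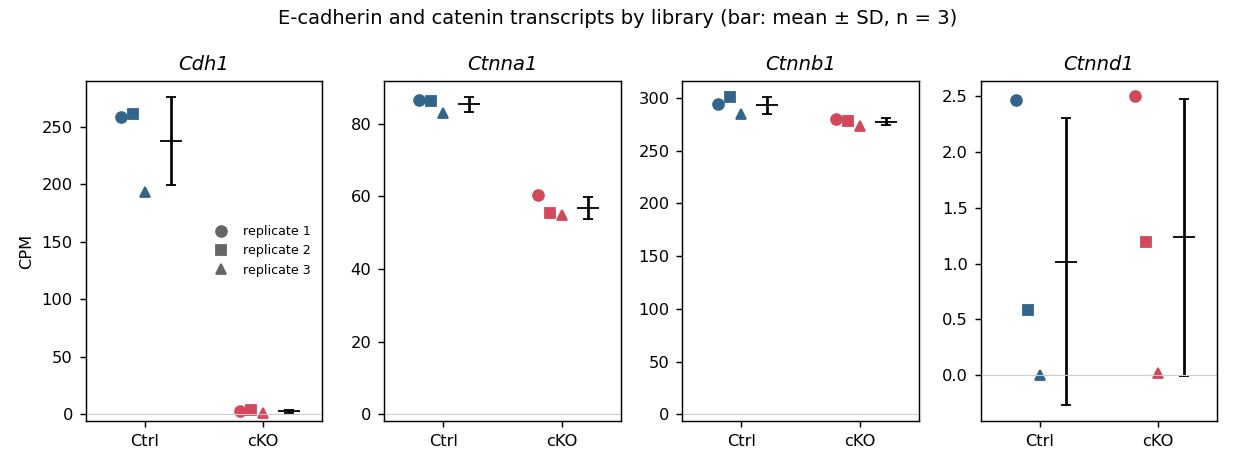
Level in CPM of each gene in each library, with Ctrl in blue and cKO in red; symbols give the replicate number and black bars the mean ± SD of 3 libraries. Cdh1 drops from 193 to 261 CPM to at most 3.62 CPM, Ctnna1 is lower in each cKO library, Ctnnb1 differs by a few percent and Ctnnd1 follows the replicate number in both groups.

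Among the catenins that bind the cadherin tail directly, β-catenin transcript was abundant and its group means differed by 5.33%. Ctnnb1 was at 294, 300.4 and 284 CPM in Ctrl and at 279.9, 278 and 274 CPM in cKO. All cKO libraries lay just below all Ctrl libraries, with means of 293 ± 8.01 and 277 ± 3.24 CPM (SD, n = 3 each), or 94.7% of the control level. The difference of -0.078 on the log2 scale, with a standard error of 0.071, did not pass the test (limma adjusted p 0.99998). With TMM scaling the difference was smaller, at -0.014 with a standard error of 0.109, so the separation of the groups holds for CPM as deposited. An interval of 2 standard errors around the unscaled difference covers folds of cKO over Ctrl from 0.859 to 1.04. A change of the size seen for Ctnna1 lies outside that interval, whereas a fall of up to about the lower bound could not be told from none.

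Ctnnb1 spans 120929216 to 120960507 on the plus strand of chromosome 9 (ENSMUSG00000006932). The antisense gene Ulk4 shares 759 bases, 14.6%, of its exons. Since strand-specific counting was not stated, reads there cannot be assigned with certainty, but Ulk4 itself was at 1.65 ± 1.26 CPM in Ctrl against 1.69 ± 0.651 CPM in cKO. The 250 bases before the more upstream of the 2 Ctnnb1 starts in RefSeq (GRCm38.p6, chr9:120933150-120933399, plus strand) are shown because this gene had the highest mean per kb of exon of the 4 in both groups. Capitals mark the CCAAT box.
Ctnnb1: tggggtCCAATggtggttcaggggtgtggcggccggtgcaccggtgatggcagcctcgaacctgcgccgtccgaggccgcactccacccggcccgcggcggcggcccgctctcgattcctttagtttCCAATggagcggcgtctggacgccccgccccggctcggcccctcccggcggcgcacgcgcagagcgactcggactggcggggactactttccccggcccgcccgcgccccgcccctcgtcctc
This window holds 35 CpG dinucleotides, 74.8% G and C, and 2 CCAAT boxes.

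Ctnnd1 was low in both groups, and in replicate 3 it was at or next to the limit of detection. It was at 2.47, 0.585 and 0 CPM in Ctrl and at 2.497, 1.19 and 0.0147 CPM in cKO, which amounts to 83, 18 and 0 reads against 72, 50 and 1. The groups overlapped completely, and the order of the libraries followed the replicate number in both. The 0 in Ctrl replicate 3 allows up to 0.0567 CPM, taking 3 reads as the upper limit, for counting error only. The difference was 0.17 with a standard error of 0.685 (limma adjusted p 0.99998) and turned to -0.24 without Ctrl replicate 3. Folds of cKO over Ctrl from 0.434 to 2.90 lie within 2 standard errors, and with the replicate block the standard error was 0.174 (limma adjusted p 0.788). The libraries with 0 and 1 reads are the 2 deepest. Replicate 3 libraries held 0 reads for 2653 of the 15691 tested genes in both groups, 16.9%, and what sets these libraries apart was not tested.

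How the gene was annotated bears on its count. In the deposited table Ctnnd1 spans 84600071 to 84650765 on the minus strand of chromosome 2 (ENSMUSG00000034101). In GENCODE M21 the read-through gene Gm28635, on the same strand, covers 4482 bases or 61.2% of the Ctnnd1 exons and is not listed in the table. HTSeq leaves out reads that overlap 2 genes in its usual modes, and the setting used was not stated. The effect on the Ctnnd1 count was not tested. Spread over the unshared 2.837 kb alone, the Ctnnd1 reads came to at most 0.880 CPM per kb in any library, which is still far below Ctnnb1 and Ctnna1. RefSeq also has a Ctnnd1 start at 84658977, outside the deposited interval. The 250 bases before each of the 2 starts (GRCm38.p6, minus strand) are shown because only the inner start lies within the counted interval, with CCAAT boxes or their complement ATTGG and the E-box CANNTG in capitals.
Ctnnd1 upstream start, chr2:84658978-84659227: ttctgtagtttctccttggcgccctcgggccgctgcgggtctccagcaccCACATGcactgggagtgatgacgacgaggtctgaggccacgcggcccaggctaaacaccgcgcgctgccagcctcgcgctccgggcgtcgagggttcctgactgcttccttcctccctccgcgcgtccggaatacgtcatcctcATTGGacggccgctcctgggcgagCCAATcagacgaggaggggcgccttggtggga
Ctnnd1 inner start, chr2:84650741-84650990: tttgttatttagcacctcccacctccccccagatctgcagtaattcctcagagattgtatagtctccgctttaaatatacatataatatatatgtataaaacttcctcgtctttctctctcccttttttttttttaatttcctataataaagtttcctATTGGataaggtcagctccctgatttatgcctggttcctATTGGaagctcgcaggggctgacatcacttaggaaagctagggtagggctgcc
The upstream window holds 26 CpG dinucleotides, 1 E-box and 2 CCAAT matches, and the inner window 3 CpG dinucleotides, no E-box and 2 CCAAT matches. Searched on both strands, a CCAAT match is found in 33.8% and an E-box in 66.2% of 32851 RefSeq promoter windows of the same length. The letters CACCTG, an E-box form bound by Snail and ZEB repressors that is also one case of CANNTG, and the SMAD-binding letters GTCTAGAC and CAGACA are in none of the windows of Ctnnb1 and Ctnnd1. They are in 17.2%, 0.167% and 17.1% of all windows. Cdh1 and Ctnna1 had no entry among the RefSeq promoters used.

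Ctnna1, the actin-linking member of the complex, was lower in every cKO library, by similar amounts. It was at 86.7, 86.4 and 83.0 CPM in Ctrl and at 60.3, 55.5 and 54.8 CPM in cKO. The highest cKO library lay well below the lowest Ctrl library, and both groups were tight. The mean fell from 85.3 ± 2.06 to 56.9 ± 3.01 CPM (SD, n = 3 each), which leaves 66.6% of the control level, and by replicate number 69.6%, 64.2% and 66.0% was left. The difference was -0.58 with a standard error of 0.083 (limma adjusted p 0.0423). With the replicate number as a block the adjusted p was 0.0109, and in replicates 1 and 2 alone it was 0.0185 at -0.57. The call sits near the threshold. Leaving out any 1 of the 6 libraries ended it (adjusted p from 0.0693 to 0.272, log2 difference from -0.62 to -0.55), as did the following settings: TMM scaling (-0.51, adjusted p 0.147), upper quartile scaling (-0.54, adjusted p 0.0596) and edgeR's quasi-likelihood test (-0.54, adjusted p 0.0620). With the replicate block the call came back under TMM scaling (0.0166) and in edgeR (0.0106). In the authors' deposited table its log2 fold change is -0.52 with an adjusted p-value of 0.159. The direction was the same in all 18 alternatives.

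Ctnna1 lies at 35118888 to 35254773 on the plus strand of chromosome 18 (ENSMUSG00000037815). Lrrtm2, which sits inside it on the opposite strand, shares 95 exon bases, 1.48% of the Ctnna1 exons, and was at 1.57 ± 1.38 CPM in Ctrl. The neighbours Hspa9, a mitochondrial chaperone, and Sil1, a cochaperone of the endoplasmic reticulum, kept levels of 243 ± 5.49 against 232 ± 7.18 CPM and of 53.6 ± 7.67 against 48.9 ± 10.4 CPM, and neither passed the test (limma adjusted p 0.99998 for both).

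Read against all genes, 2 of the 4 were called, both lower in cKO. Of the 15691 genes tested 0.663% were called in either direction and 0.459% were called lower. In CPM as deposited, the groups did not overlap for Cdh1, Ctnna1 and Ctnnb1, with cKO lower, which held for 7.1% of all genes tested. By difference of log2(CPM + 1), Cdh1 ranked 1, Ctnna1 428, Ctnnb1 6392 and Ctnnd1 13621 of 15691 from the strongest fall on that scale.

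**Figure D2:**
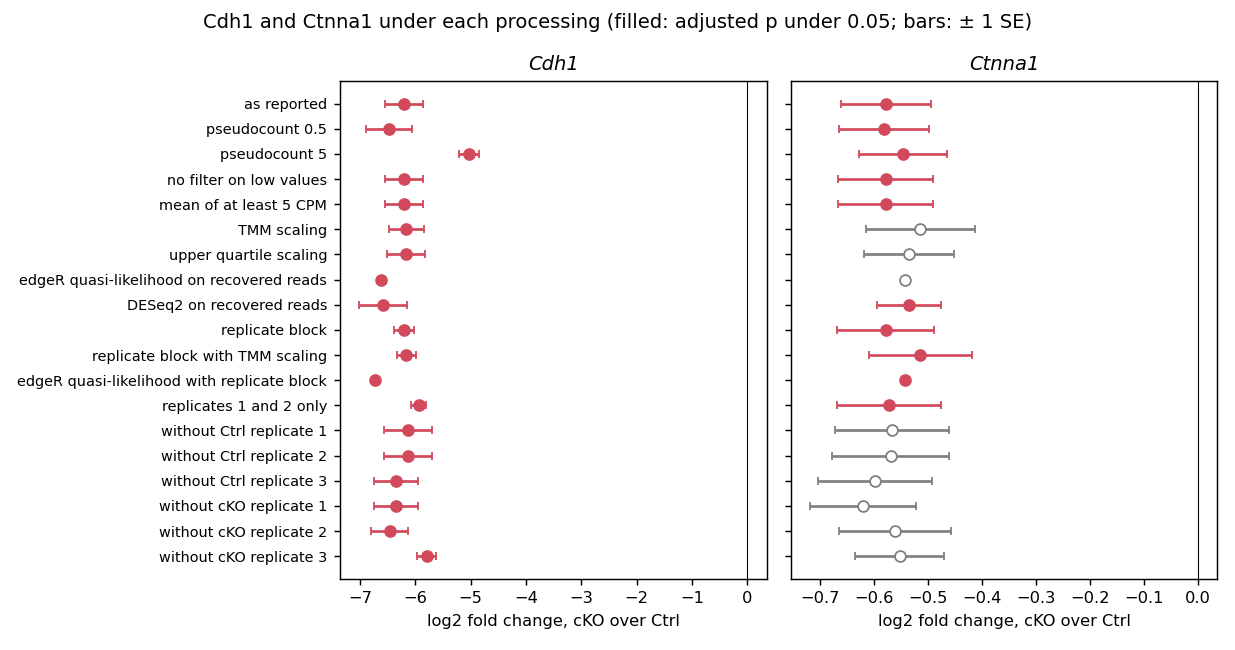
Log2 fold change of cKO over Ctrl for Cdh1 (left) and Ctnna1 (right) as reported and under each of 18 other ways of processing; filled red points passed an adjusted p of 0.05, open grey points did not, and bars are ± 1 SE, which edgeR does not give. Cdh1 passed throughout, between -6.73 and -5.03, whereas Ctnna1 stayed between -0.62 and -0.51 and passed in some only.

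Levels of different genes were compared as CPM per kb of annotated exon (the union of GENCODE M21 exons, 4.574 kb for Cdh1, 6.425 kb for Ctnna1, 5.192 kb for Ctnnb1 and 7.319 kb for Ctnnd1). In Ctrl the transcripts for E-cadherin and β-catenin were at similar length-scaled levels. Ctnnb1 was at 56.6, 57.9 and 54.8 CPM per kb and Cdh1 at 56.5, 57.0 and 42.2 CPM per kb, ranges that overlap. Spread over only the 4.41 kb that Ctnnb1 shares with no other gene, its reads came to 66.6, 68.1 and 64.5 CPM per kb. These lie above Cdh1, which shares no exon bases, in every Ctrl library. The order of Ctnnb1 and Cdh1 thus depends on the length used and is not resolved. Ctnna1 followed at 12.9 to 13.5 CPM per kb, below both in every library, and Ctnnd1 at 0 to 0.337 CPM per kb. In cKO Cdh1 lay below Ctnna1 in every library. Ctnnb1 was at 52.7 to 53.9, Ctnna1 at 8.53 to 9.39 and Cdh1 at 0.180 to 0.791 CPM per kb, and Ctnnd1, at 0.00201 to 0.341, overlapped Cdh1. The ratio of Ctnnb1 to Cdh1 per kb was 1.001, 1.02 and 1.30 in the Ctrl libraries and 84.6, 67.8 and 293 in the cKO libraries. The ratio of Ctnnb1 to Ctnna1 went from 4.25 ± 0.0542 to 6.04 ± 0.262 (SD, n = 3 each), with no overlap. These ratios compare transcripts and say nothing of the proteins.

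**Figure D3:**
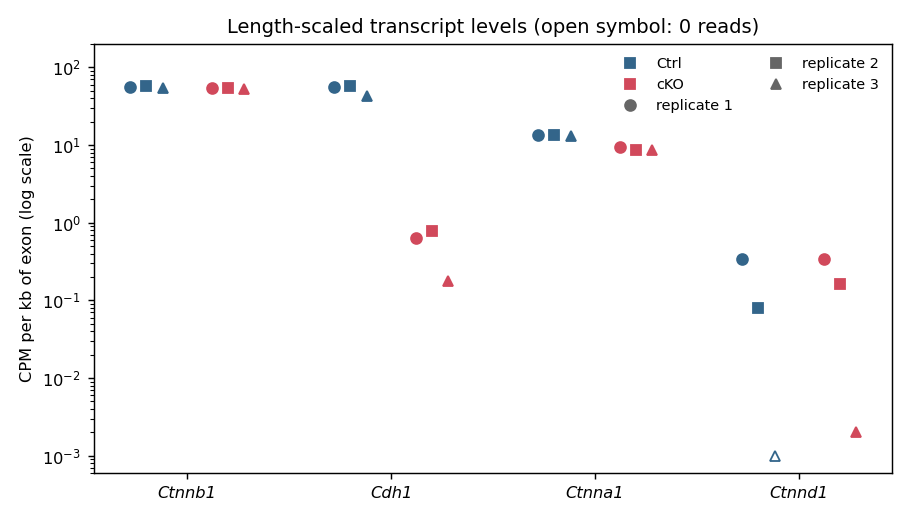
Length-scaled level (CPM per kb of exon, log scale) of the 4 genes in each library, with Ctrl in blue, cKO in red and symbols by replicate number; the open symbol marks 0 reads and is drawn at the foot of the axis. Over the full exon length Cdh1 and Ctnnb1 overlap in Ctrl, between 42.2 and 57.9, and they lie 67.8-fold or more apart in each cKO library.

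No other cadherin was called higher or lower. Of 22 other cadherins listed, 16 were in the table and all 16 were tested, and none passed with the block or in replicates 1 and 2 alone either. Cdh13, a cadherin without the catenin-binding tail, was at 24.4, 22.6 and 10.2 CPM in Ctrl and 20.8, 16.3 and 5.13 CPM in cKO. Cdh23, a long cadherin of hair cell links, was at 17.6, 15.9 and 10.99 CPM in Ctrl and 14.4, 16.5 and 9.22 CPM in cKO. The classical N-cadherin, Cdh2, had means of 1.68 ± 1.46 and 1.48 ± 1.38 CPM. All 3 overlapped between the groups. Of the 16, 11 were at 0 in both replicate 3 libraries (68.8%, against 16.9% of all genes tested), among them Cdh7, which was at 15.1 to 15.8 CPM in each of the other 4 libraries.

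Of 10 catenin relatives, all in the table and 9 tested, none was called in limma without the block. Pkp3 (plakophilin 3, a desmosomal armadillo protein) was at 219, 209.8 and 276 CPM in Ctrl and 159.9, 165 and 191 CPM in cKO, with no overlap. Its difference of -0.44 had a limma adjusted p of 0.474, of 0.0223 with the replicate block and of 0.0427 in replicates 1 and 2 alone. Jup (plakoglobin, which can take the place of β-catenin on the cadherin tail) was at 16.7, 19.8 and 18.6 CPM in Ctrl and 17.7, 31.8 and 24.5 CPM in cKO, which overlap (limma adjusted p 0.99998). The p120 relatives Arvcf and Ctnnd2 and the α-catenin relative Ctnnal1 had Ctrl means of 3.57 ± 1.87, 2.69 ± 2.37 and 11.4 ± 3.27 CPM and cKO means of 2.19 ± 0.374, 3.18 ± 3.30 and 6.93 ± 3.67 CPM, and none of them passed in either fit.

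**Figure D4:**
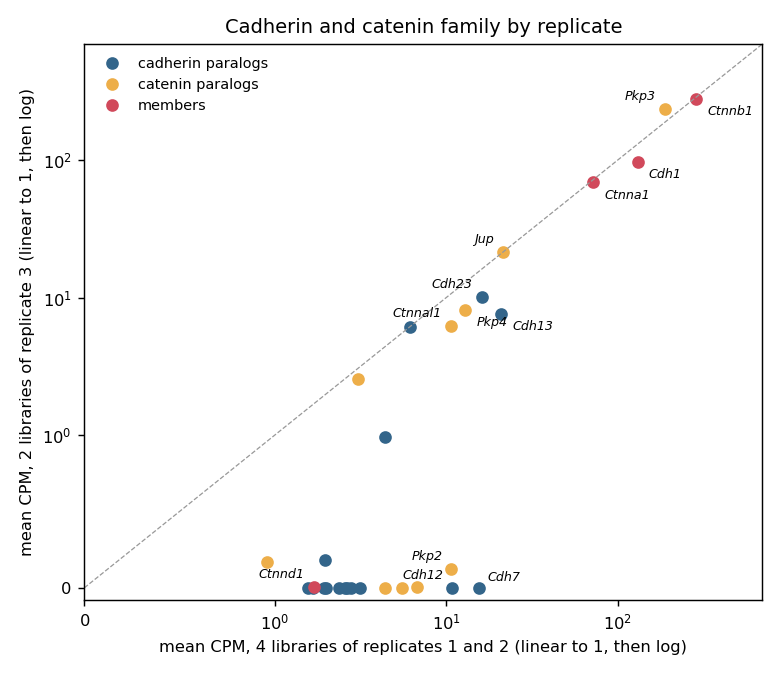
Mean CPM over the 2 libraries of replicate 3 (vertical) against the 4 libraries of replicates 1 and 2 (horizontal), for the 4 genes (red), other cadherins (blue) and catenin relatives (yellow); both axes are linear to 1 and logarithmic above, and the dashed line marks equal values. Ctnnd1 and 11 of the 16 cadherins lie at or next to 0 in replicate 3, while Ctnnb1, Ctnna1 and Pkp3 lie near the line.

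The wider pathway was read in 11 lists that hold 134 genes, of which 109 were in the table and 107 were tested. Itgae (lower) and Runx1 (higher) were called, 2 of 107, beside 0.663% of all genes, or 0.459% lower and 0.204% higher. With the replicate block 8 were called, 4 in each direction, beside 2.87% of all genes (1.64% lower and 1.24% higher): Itgae, Tjp1, Pkp3 and Actn1 lower, and Runx1, Fyn, Tcf7 and Klrg1 higher. In replicates 1 and 2 alone 5 were called, Runx1 and Fyn higher and Tjp1, Myc and Pkp3 lower, beside 1.72% (0.991% lower and 0.734% higher). Groups did not overlap for 12 of the 107, 6 in each direction, beside 11% of all genes, 7.1% lower and 3.89% higher. The median log2 difference over the 107 was -0.027, against -0.038 over all genes tested.

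Outside the cell, the integrin chain that binds E-cadherin fell together with it. Itgae was at 830, 768 and 616 CPM in Ctrl and at 15.4, 38.7 and 36.3 CPM in cKO, which leaves 4.08% of the control level. Its difference was -4.66 with a standard error of 0.339 (limma adjusted p 0.00403), and in replicates 1 and 2 alone, whose cKO values are the 15.4 and 38.7 CPM above, the adjusted p was 0.176. Its partner chain Itgb7 was at 986 ± 102 CPM in Ctrl against 856 ± 105 CPM in cKO (SD, n = 3 each), with overlap, and did not pass (limma adjusted p 0.99998). Klrg1 was low in both groups, at 1.67, 1.75 and 1.28 CPM in Ctrl and at 3.61, 3.33 and 4.38 CPM in cKO. It lay higher in every cKO library and did not pass in limma (adjusted p 0.822). It passed in limma with the block (0.0403) and in DESeq2 (0.0106), but not in edgeR with the block (0.0670). Epcam, an adhesion molecule of epithelium, had means of 6.52 ± 2.71 and 6.58 ± 3.28 CPM.

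Among transcription factors reported to act on the Cdh1 gene, Runx1, listed as an activator, rose and the repressors measured did not pass. Of 12 activators listed, which include Runx3, 5 were in the table, 7 were not and 4 were tested. Only Runx1 of them was called in limma, beside 0.663% of all genes, and its direction was opposite to that of Cdh1. Runx1 was at 41.7, 46.5 and 49.8 CPM in Ctrl and at 80.7, 91.0 and 88.9 CPM in cKO, a 1.89-fold difference with no overlap. The log2 difference was 0.90 with a standard error of 0.103 (limma adjusted p 0.0189). It missed the threshold with TMM scaling (0.0692) and in edgeR's test (0.0716), and of the 6 fits without 1 library it passed in those without cKO replicate 1 or cKO replicate 3 (adjusted p from 0.0417 to 0.124 over the 6). With the block it passed under TMM scaling (0.000419) and in edgeR (0.000181). Runx3, its relative in cytotoxic T cells, was at 213 ± 10.9 CPM in Ctrl against 177 ± 5.72 CPM in cKO, lower in every cKO library but not called (limma adjusted p 0.464, in DESeq2 0.0115). Of 10 repressors, 6 were in the table, and Snai1, Snai2, Twist1 and Twist2 were not listed. Zeb1 was at 50.01, 46.95 and 42.8 CPM in Ctrl and at 48.8, 48.5 and 27.8 CPM in cKO. Zeb2 was at 8.41, 4.68 and 0.283 CPM in Ctrl and at 9.68, 4.996 and 0.499 CPM in cKO, so both overlapped between the groups. None of the 6 was called in any fit, and none of the 10 genes of E-cadherin turnover, which include the sheddase Adam10 (191 ± 6.29 against 178 ± 21.8 CPM), was called in limma without the block or with it, while DESeq2 called 1 of them.

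None of 16 tested linkers and nectins, which tie the junction to actin or lie beside it, was called in limma without the block. Tjp1 and Actn1 passed with it, both lower, and Tjp1 also in replicates 1 and 2 alone (limma adjusted p 0.0184), and these 2 genes, like Fyn below, were chosen for mention after their values were seen. Tjp1 (ZO-1) was at 32.2, 22.1 and 7.95 CPM in Ctrl and at 7.53, 3.26 and 0.0441 CPM in cKO. It was lower in every pair of equal number but spread widely within groups, with a limma adjusted p of 0.585 without the block and of 0.000619 with it, whereas edgeR with the block did not call it (0.382). Actn1 (α-actinin 1) was at 13.5, 11.6 and 14.4 CPM in Ctrl and at 4.06, 7.92 and 5.46 CPM in cKO (limma adjusted p 0.242, with the block 0.0358), and it passed in DESeq2 (0.00764). The linkers Actn4, Iqgap1 and Ablim1 had Ctrl means of 476 ± 18.2, 720.5 ± 96.1 and 1034 ± 51.7 CPM and cKO means of 472 ± 18.5, 689 ± 89.4 and 939 ± 46.4 CPM, and none of them passed in either fit.

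On the signalling side of β-catenin, none of the 11 genes of the destruction complex was called in any fit. Axin2, both a part of that complex and a target of β-catenin, was at 9.16, 7.25 and 6.51 CPM in Ctrl and at 13.1, 9.80 and 7.31 CPM in cKO, which overlap (limma adjusted p 0.99998). Tcf7, which encodes TCF1, was at 312, 246.5 and 257 CPM in Ctrl and at 377.5, 363 and 387 CPM in cKO. All cKO libraries lay above all Ctrl libraries, with a difference of 0.47, a limma adjusted p of 0.227, of 0.0239 with the block and, in DESeq2, of 0.00112. Lef1 had means of 182 ± 13.1 and 206 ± 19.97 CPM and passed in neither fit. Myc was at 344, 294 and 350.3 CPM in Ctrl and at 220.2, 229 and 296 CPM in cKO, with a limma adjusted p of 0.582, and was called lower in replicates 1 and 2 alone (0.0278). Among 9 tested target genes no other was called in limma, with the block or without. Of 13 genes listed as partners of p120-catenin, none was called in limma without the block and only the kinase Fyn with it, at 541 ± 40.8 CPM in Ctrl against 726 ± 40.2 CPM in cKO (limma adjusted p 0.173, with the block 0.0144). Fyn also passed in replicates 1 and 2 alone (limma, 0.0193) and in DESeq2 (0.00151).

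**Figure D5:**
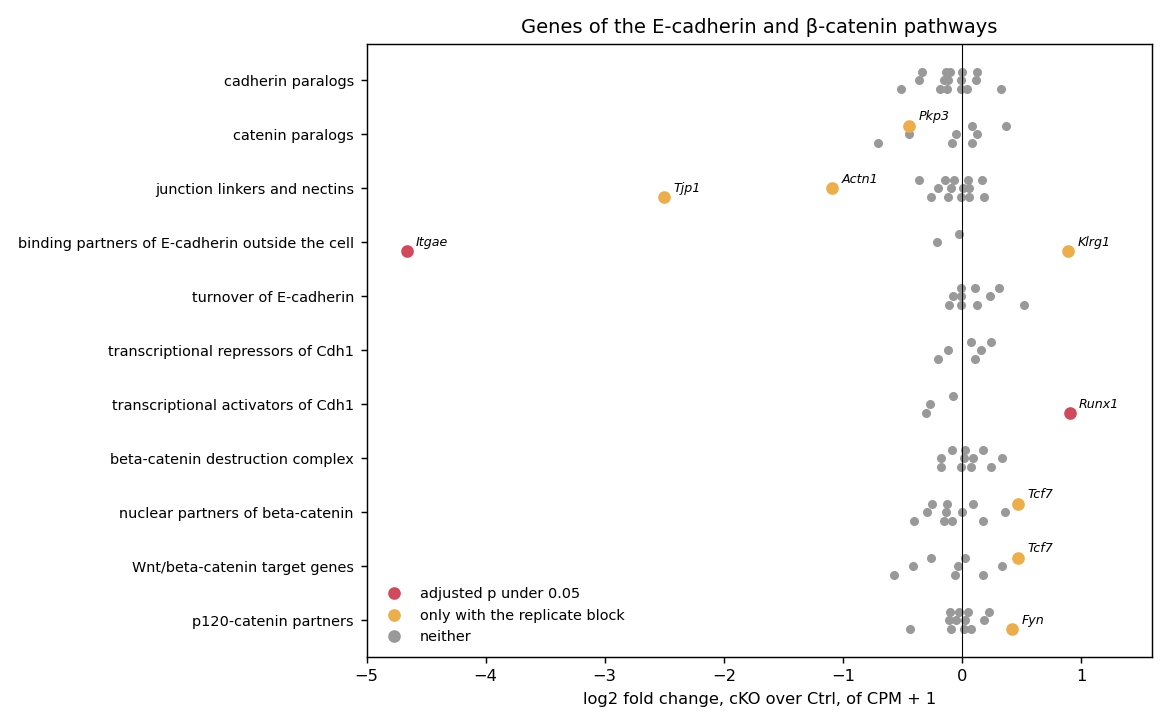
Log2 fold change (cKO over Ctrl, of CPM + 1) of each tested gene, 1 row per list; red points passed an adjusted p of 0.05, yellow points passed only with the replicate block, and grey points passed neither fit. Most points lie around 0, with Itgae at -4.66, Tjp1 at -2.50, Actn1 at -1.09, and Runx1 and Klrg1 near 0.90; Tcf7 belongs to 2 lists and appears in both.

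The genes whose level across the 6 libraries was most like that of Cdh1 were Gbp3, Stk17b, Rnase6, Adrb1 and Apol9b, with Pearson correlations of log2(CPM + 1) from 0.992 to 0.997. All 5 were lower in cKO, since the highest positive correlations were taken and Cdh1 itself falls. A gene that falls in every cKO library must correlate with Cdh1, and the libraries share their depth and group. Gbp3, an interferon-induced GTPase, went from 226 ± 11.8 to 65.2 ± 7.24 CPM. Stk17b, a kinase of lymphocytes, went from 795 ± 14.7 to 602 ± 8.42 CPM and was not called (limma adjusted p 0.0797). Among the catenins the correlation with Cdh1 was 0.989 for Ctnna1, 0.883 for Ctnnb1 and -0.0077 for Ctnnd1, and for Itgae it was 0.970. These values describe 6 libraries and carry no test.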

How the data were processed

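Per the labels, total RNA of thymic iNKT1 cells was purified with a Qiagen micro kit, made into libraries with the NuGEN Ovation Ultralow system and read for 75 bases on a NextSeq500. The submitters' processing notes name Trimmomatic 0.33, STAR 2.5.2, HTSeq 0.6.1, edgeR and build mm10. Strand setting and counting mode are not given in the sources used here. The deposited table gives CPM per library, computed by the authors from read counts over each whole library total: 100% of values were whole multiples of 1 read (tolerance 0.01 read), so reads were recovered. Other columns deposited by the authors hold a log2 fold change, a mean log2 CPM, a likelihood-ratio score, p-values, marks and a width, of which the fold change and p-values are quoted. Of all value columns, 0 were unmapped. Columns named KO and WT were taken as cKO and Ctrl of the same replicate number.

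The main test was limma 3.58.1 (R 4.3.3) on log2(CPM + 1) for genes averaging 1 CPM or more, fitted to group alone with a trended prior variance and robust moderation, and Benjamini-Hochberg adjustment over the 15691 genes. The threshold was an adjusted p of 0.05, and "called" or "passed" means below it. edgeR 4.0.16 and DESeq2 1.42.0 on the recovered reads, the block and other alternatives are in the closing section. An exact permutation test of 3 against 3 cannot go below 0.1 and was not used. Same-numbered libraries deviated together from their group means (r = 0.855, 0.687 and 0.924 over genes), so the numbers were taken to pair the samples, although the labels do not say what they share. Libraries 1 and 2 also deviated together across numbers (r = 0.718 and 0.578), so this separates replicate 3 from the others and does not tell 1 from 2. The scripts were tested on simulated counts that held no replicate effect, which checks the code and not the error rates in these libraries. Library pairs within a group differed by more than sampling noise and were kept apart.

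The genes and lists were chosen with earlier results of these data known, so their counts are descriptions. Named genes were the members, Tgfbr2, their relatives, neighbours and overlapping genes, a set of E-cadherin and β-catenin partners (Itgae, Itgb7, Klrg1, Zeb1, Zeb2, Tcf7, Lef1, Axin2, Myc), up to 4 called genes per list, and the 5 genes most correlated with Cdh1. Others named are shown for their level in a list. Cell markers were read in 9 lists. iNKT2 markers summed to 285 to 354 CPM in Ctrl and 263 to 357 in cKO, iNKT17 to 1.78 to 9.43 and 5.93 to 8.74, B cell to 4.32 to 15.2 and 3.14 to 16.1, and myeloid to 0.774 to 10.8 and 1.56 to 10.6. Promoter windows are from RefSeq (GRCm38.p6) and exon lengths from GENCODE M21.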

Additional observations from a re-analysis of the deposited data

How the results depend on the processing

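Results were recomputed under 18 alternatives: 12 other settings and 6 fits that left out 1 library each. Cdh1 passed in all 18 (without 1 library, -6.47 to -5.80). Ctnna1 kept its direction and missed the threshold with TMM scaling (-0.51), upper quartile scaling (-0.54) and edgeR's quasi-likelihood test (-0.54) and without any 1 library (-0.62 to -0.55). Ctnnb1 never passed. Ctnnd1 turned negative without Ctrl replicate 3 (-0.24, in a range of -0.24 to 0.65 over the 4 such fits it entered) and had no adjusted p in DESeq2. It was below the filter at a mean of 5 CPM and in 2 fits without 1 library. Zeb1 turned to 0.0045 in replicates 1 and 2 alone and ranged from -0.33 to 0.063 without 1 library. Leaving out 1 library of a group assumes that the remaining pair varies like the other group.

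The number of genes called was 104 as reported, 41 in edgeR, 552 in DESeq2, 451 with the replicate block, 514 with the block and TMM scaling, 469 in edgeR with the block, 296 in replicates 1 and 2 alone and 14 to 97 without 1 library (22, 14 and 28 without Ctrl replicate 1, 2 or 3, and 71, 22 and 97 without cKO replicate 1, 2 or 3). Of the 107 pathway genes 2 were called as reported, 1 with TMM scaling, 1 in edgeR, 8 in DESeq2, 8 with the replicate block, 8 with the block and TMM scaling, 6 in edgeR with the block, 5 in replicates 1 and 2 alone and 1 to 2 without 1 library. The cause of these differences was not tested. At the scaling reported, the block changed no call on the 4 members. With TMM scaling and in edgeR it brought back the Ctnna1 call (adjusted p 0.0166 and 0.0106). Ctnnd1 rests on 0 to 83 reads a library, with the fewest in the 2 deepest libraries, so its interval is not set by depth alone.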
